A study of Mus musculus with 12 samples.

Results

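The livers of male mice that lacked Pml were compared after a high-fat and a low-fat diet. Pml encodes a protein that organises nuclear bodies and that the series title connects with fatty acid oxidation and PPAR signalling. The difference between the diets rests on 6 of the 12 arrays of the series: 3 liver extracts of knockout mice on the high-fat diet minus 3 of knockout mice on the low-fat diet. Both groups carried the knockout of Pml. The high-fat diet had 60% of its calories from fat and the low-fat diet 10%, both were fed for 20 weeks, and all mice were fasted for 8 h before the liver was taken. The other 6 arrays hold wild-type livers on the same diets, again 3 for each diet. They serve here to set the diet effect of one genotype beside that of the other. They also enter the shared estimate of spread, and so the p-values of the knockout comparison. Each group had 8 mice, of which 3 extracts were hybridised. The labels give no strain or age, do not say how Pml was disrupted or in which cells, and do not say outright that each extract came from its own mouse, so the p-values measure the spread between these extracts.

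All probe sets with a single gene were used: 28898 of 45141, for 17097 genes, of which 10258 were bright enough to be tested. The values are log2 signals, so a difference of 1 means a doubling of the signal. The labelled tissue was borne out by its markers: the mean log2 signal of the hepatocyte list lay between 13.07 and 13.18 in the 6 knockout arrays. Pml itself had 3.70, 3.59 and 3.59 in the knockout livers under low fat and 3.43, 3.04 and 3.82 under high fat, all below 4.08, the lowest mean of a tested gene, and below every wild-type liver (4.92 to 5.40). Its difference between the diets was -0.20 (SE 0.188, limma adjusted p = 0.645).

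The liver makes fatty acids from carbohydrate when these are plentiful. Acetyl-CoA carboxylase forms malonyl-CoA, fatty acid synthase builds the chain, elongases lengthen it and desaturases such as Scd1 add double bonds. SREBP-1c and ChREBP switch these genes on, and dietary fat is known to lower them. In the other direction, fatty acids are burnt in mitochondria and peroxisomes, and the nuclear receptor PPAR-alpha, which fatty acids activate, raises many of the genes for it.

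On the high-fat diet 311 of the 10258 genes tested changed in knockout liver (3.03%, limma with the Benjamini-Hochberg correction at an adjusted p of 0.05): 180 rose (1.75%) and 131 fell (1.28%). The enzymes of fatty acid synthesis were among the largest falls. By the brightest probe set of each gene, Scd1 fell 4.97-fold, Fasn 3.80-fold and Acacb 3.31-fold. The largest rises were those of Lcn2, an acute phase protein that binds iron-carrying siderophores, at 7.35-fold, of Vnn1, a pantetheinase and PPAR-alpha target, also at 7.34-fold, and of Cyp4a10, a fatty acid hydroxylase, at 5.75-fold. Genes of fatty acid oxidation rose by less, Eci1 by 1.66-fold at most in the mitochondrial list. Etnppl, which degrades phosphoethanolamine, fell 5.34-fold.

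Most changes were small. Of the genes that rose, 35 did so by at least 2-fold and 70 by 1.5 to 2-fold; of those that fell, 16 and 36. The smallest change that passed was 1.16-fold. In 310 of the 311 genes the 3 high-fat arrays lay entirely on one side of the 3 low-fat arrays, the exception being Gm2788. Over all genes tested, 10.8% had all high-fat arrays above the low-fat arrays and 10.9% had them all below. The median difference of all genes tested was -0.008, with 48.4% higher and 51.6% lower on the high-fat diet. The counts of each gene list below stand beside these shares and those of all genes tested that rose (1.75%) or fell (1.28%). Before the correction, 1881 genes had a p under 0.05.

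**Figure D1:**
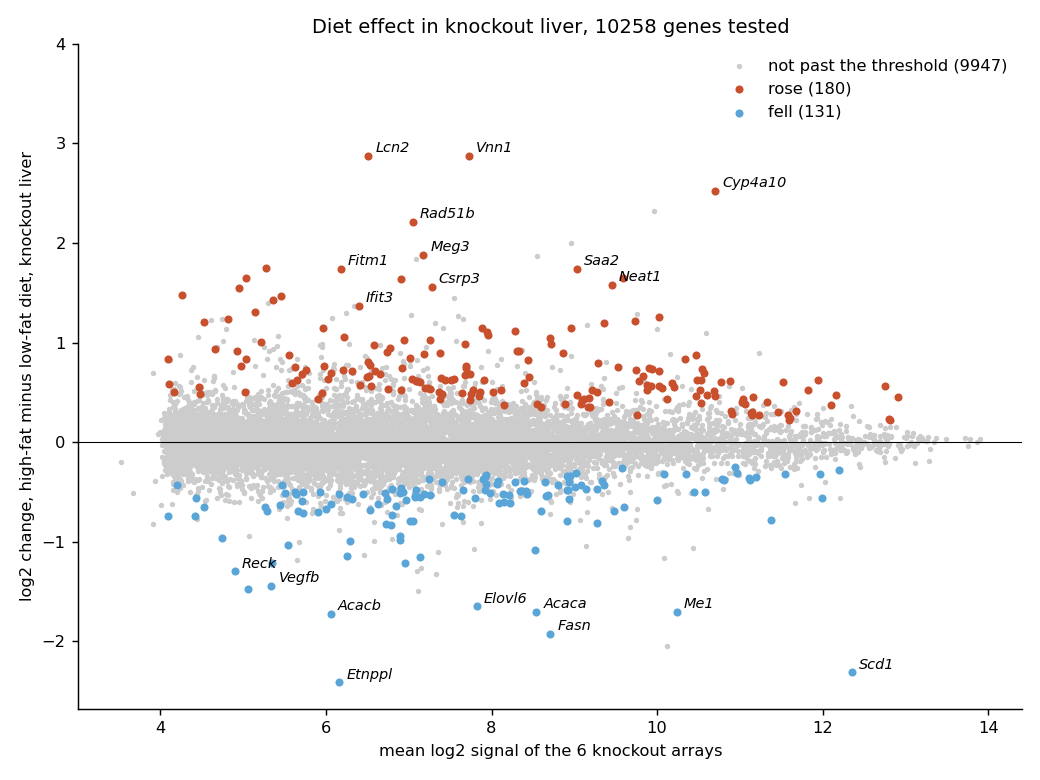
Log2 change between the diets in knockout liver (vertical axis) against the mean log2 signal of the 6 knockout arrays (horizontal axis) for the 10258 genes tested. Orange points are the 180 genes that rose, blue points the 131 that fell, grey points the rest; the lipogenic genes Scd1, Fasn, Acaca, Acacb, Me1 and Elovl6 lie between -2.31 and -1.65, and Lcn2, Vnn1 and Cyp4a10 above Fitm1 at 1.74.

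How many genes passed depended on single arrays and on the estimate of spread. Without knockout high-fat replicate 2 the count was 71, without knockout low-fat replicate 1 it was 111, without high-fat replicate 3 it was 136, without low-fat replicate 2 it was 151 and without high-fat replicate 1 it was 188. It was 461 without knockout low-fat replicate 3. Leaving out 1 wild-type array, which changes the shared estimate of spread alone, gave from 214 (without high-fat replicate 2) to 325 (without low-fat replicate 2). A fit of the 6 knockout arrays alone, with their own estimate of spread, gave 68 genes, 48 higher and 20 lower. Of 79 genes that passed and are named here, Gpat3 aside, 44 did so in that fit. Scd1, Fasn, Acaca, Me1, Elovl6, Eci1, Fitm1, Lcn2 and Ifit3 are among these 44. Each of the 311 genes kept its sign in every alternative in which it was tested, but most alternatives could not have turned it. Many leave the difference itself unchanged, and where the diets do not overlap, leaving out an array cannot reverse it. Under the 2 other normalizations and with probe sets averaged, which change the values, no sign turned either. A group of 34 genes, 23 risen and 11 fallen, passed under each of the 24 alternatives in which they were tested. Of them 6, Vegfb, Reck, Man2a2, Nt5e, Mterf2 and Pdzrn3, were left out as dim by the 60% filter and so were tested in 23. Among the alternatives is the looser threshold of 0.10 on the same fit, which a gene that passed cannot miss. A set of 57 genes passed without each of the 6 knockout arrays in turn.

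Arrays also differed in the RNA of cells other than hepatocytes. The mean log2 signal of 15 macrophage and Kupffer cell markers was 6.72, 5.12 and 6.39 in low-fat replicates 1 to 3 and 6.96, 6.61 and 5.72 in high-fat replicates 1 to 3. For 15 liver endothelial markers it was 6.97, 5.96 and 6.47 under low fat and 6.68, 5.92 and 5.88 under high fat. Low-fat replicate 2 and high-fat replicate 3 were thus low in both. No marker of either list passed: 12 of 15 macrophage markers were higher on the high-fat diet (median difference 0.40) and 14 of 15 endothelial markers were lower (median -0.37). The macrophage median ran from -0.19, without low-fat replicate 2, to 0.87, without low-fat replicate 1, so its direction turned on 1 array. The endothelial median ran from -0.71 without high-fat replicate 1 to -0.12 without low-fat replicate 1. In a whole liver extract, fewer cells of a type and less RNA per cell cannot be told apart. Without the 2 knockout arrays with the lowest macrophage level, low-fat replicate 2 and high-fat replicate 3, 69 genes passed, 36 higher and 33 lower, and 61 of them were among the 311. Of the same 79 named genes 37 passed, again with Scd1, Fasn, Acaca, Me1, Elovl6, Eci1, Fitm1, Lcn2 and Ifit3, whereas Elovl5, Rad51b and Neat1 did not. The 3' minus 5' signal of the actin control probes, a sign of RNA quality, was 1.48 to 1.55 on the low-fat diet and 1.41 to 1.44 on the high-fat diet. The diets did not overlap in this measure, and its part in the results was not tested.

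**Figure D2:**
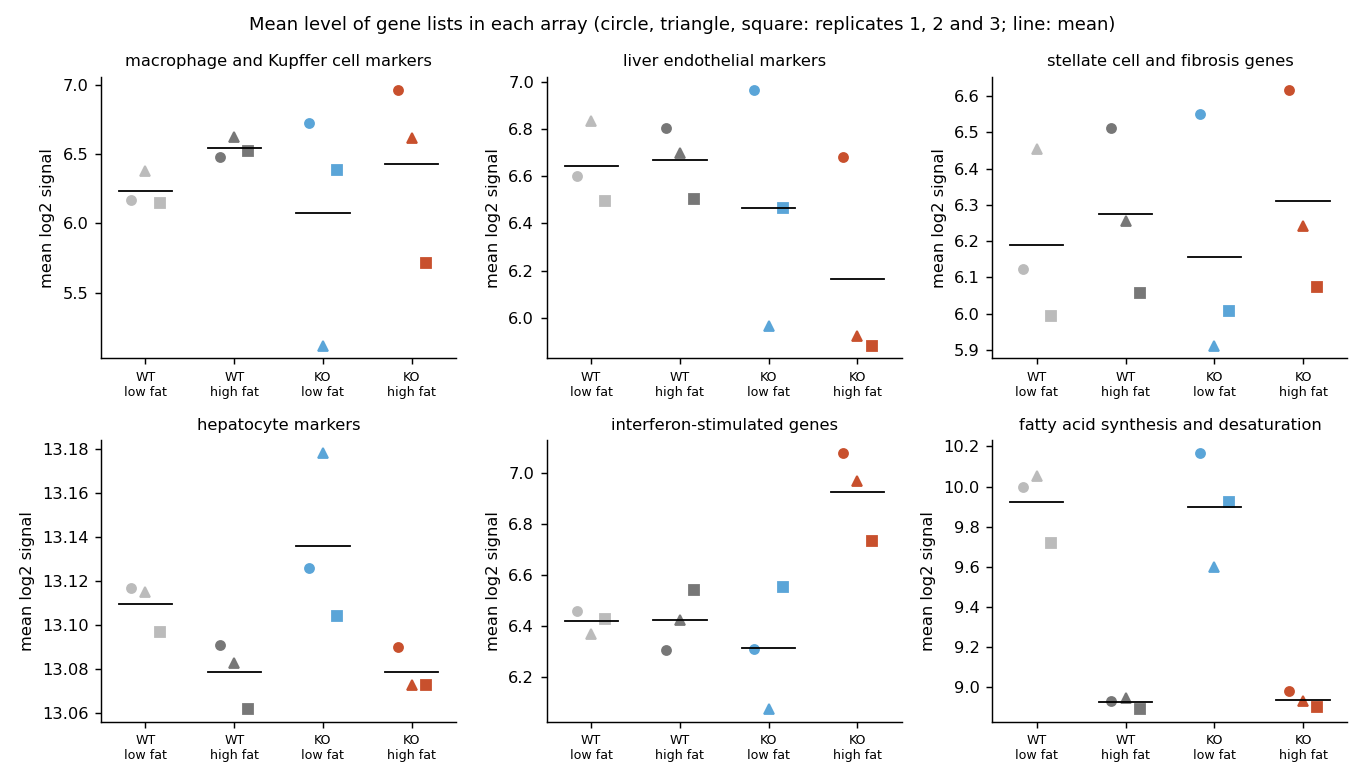
Mean log2 signal of the tested members of 6 gene lists (vertical axis) in each array, by genotype (WT, wild type; KO, Pml knockout) and diet; symbols are the replicates and lines the means of 3. The macrophage level is lowest in knockout low-fat replicate 2, at 5.12, whereas the fatty acid synthesis level separates the diets, at 9.60 to 10.17 on the low-fat and 8.90 to 8.98 on the high-fat diet in knockout liver.

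Fatty acid synthesis was the group with the clearest fall. Of 19 listed genes 16 were tested, 7 fell, none rose, and 15 were lower, with a median difference of -0.60 against -0.008 over all genes. Those that fell were Scd1, Fasn, Acacb, Me1, Acaca, Elovl6 and Elovl5. Over all genes tested 1.28% fell and 51.6% were lower. Without any one array, 7 to 10 members fell, and 7 did so without the 2 arrays of lowest macrophage level. The start sites of 6 of these 7 genes are in the RefSeq promoter table of build GRCm38.p6, which gives 250 bases before and 50 after the start. Those of the largest falls in the table, Fasn, Acacb and Me1, are shown 5' to 3' because these genes fell together. Capitals mark matches, on either strand, to the NF-Y box CCAAT, the E-box CACGTG, the sterol element TCACNCCAC bound by SREBP and a direct repeat of AGGNCA with 1 base between, the kind bound by PPAR.
Fasn, promoter at chr11:120824498-120824797, minus strand: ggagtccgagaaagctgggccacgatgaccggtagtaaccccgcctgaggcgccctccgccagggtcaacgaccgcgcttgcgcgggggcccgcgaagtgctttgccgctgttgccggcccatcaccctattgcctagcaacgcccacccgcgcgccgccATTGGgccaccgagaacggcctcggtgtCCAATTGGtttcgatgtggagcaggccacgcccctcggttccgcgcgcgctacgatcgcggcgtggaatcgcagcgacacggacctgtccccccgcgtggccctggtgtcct
Acacb, promoter at chr5:114165268-114165567, plus strand: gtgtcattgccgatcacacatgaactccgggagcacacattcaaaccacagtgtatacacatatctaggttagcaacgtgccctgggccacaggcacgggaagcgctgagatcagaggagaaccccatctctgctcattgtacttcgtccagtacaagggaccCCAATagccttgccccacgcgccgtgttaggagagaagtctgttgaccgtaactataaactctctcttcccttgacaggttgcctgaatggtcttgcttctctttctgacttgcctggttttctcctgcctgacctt
Me1, promoter at chr9:86695865-86696164, minus strand: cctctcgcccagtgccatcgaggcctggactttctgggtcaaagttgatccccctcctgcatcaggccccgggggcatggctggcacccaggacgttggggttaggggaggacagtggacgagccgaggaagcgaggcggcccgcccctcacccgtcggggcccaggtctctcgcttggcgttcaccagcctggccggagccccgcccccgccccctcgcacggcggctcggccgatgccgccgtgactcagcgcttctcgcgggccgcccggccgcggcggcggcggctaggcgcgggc
The Fasn window held 3 NF-Y boxes, of which a pair overlap on opposite strands, the Acacb window 1, and the Me1 window none. None of the 3 windows held the E-box, the sterol element or the direct repeat as spelled here. Of all 32851 promoters in the table, 37.4% held an NF-Y box, 7.15% the E-box, 1.24% the sterol element and 0.381% the direct repeat. A second start of Me1 in the table, not shown, held 1 NF-Y box and none of the other motifs.

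Scd1, the desaturase that forms oleate and palmitoleate, had a log2 signal of 13.58, 13.43 and 13.52 under low fat against 11.41, 11.14 and 11.04 under high fat. The groups lay far apart, with little spread in either. The difference was -2.31 (SE 0.178, adjusted p = 0.00013), and a dimmer probe set of this gene gave -4.18. Fasn, fatty acid synthase, had 10.26, 9.18 and 9.56 under low fat and 7.98, 7.58 and 7.68 under high fat. Low-fat replicate 1 was highest, and the lowest low-fat liver was still above all high-fat livers (difference -1.93, SE 0.268, adjusted p = 0.00351).

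Both acetyl-CoA carboxylases, which supply malonyl-CoA, had the same order of low-fat arrays as Fasn. Acaca, the cytosolic form, had 9.75, 9.16 and 9.26 and then 7.90, 7.58 and 7.59, a 3.26-fold fall (difference -1.70, SE 0.174, adjusted p = 0.00104). Acacb, the form at the mitochondrial membrane whose product restrains fatty acid import, had 7.56, 6.30 and 6.90 and then 5.32, 4.94 and 5.32 (difference -1.73, SE 0.262, adjusted p = 0.00556). Averaged over all probe sets of a gene, the differences were smaller, -0.87 for Acaca and -1.01 for Acacb. Acacb missed the threshold in the knockout arrays alone (adjusted p = 0.0523).

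Me1, malic enzyme, which provides NADPH for the synthesis, fell 3.26-fold, from 11.48, 10.79 and 11.00 to 9.18, 9.56 and 9.42 (adjusted p = 0.00247). Elovl6, the elongase that turns palmitate into stearate, fell 3.14-fold, from 8.93, 8.29 and 8.72 to 6.57, 7.43 and 6.99 (adjusted p = 0.00229). High-fat replicate 1 was the lowest for both, and the diets did not overlap. Elovl5, an elongase of polyunsaturated fatty acids, fell by 0.56 on the log2 scale (SE 0.0966, adjusted p = 0.0122). Acly, which makes cytosolic acetyl-CoA from citrate, had -0.85 and lay just outside the threshold (adjusted p = 0.05003). Thrsp, a lipogenic regulator, was the member with a higher value, 0.12 (adjusted p = 0.647).

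At the mRNA level none of the 9 tested lipogenic transcription factors and their partners, which switch these enzymes on or hold them back, passed, and their median was -0.09. Insig1, which holds SREBP precursors in the endoplasmic reticulum, had -0.51 (adjusted p = 0.0596), Usf2 -0.40 (adjusted p = 0.0509) and Usf1 -0.19 (adjusted p = 0.649). No member of cholesterol synthesis and uptake passed among 15, 12 of which were lower (median -0.31). Fdps, Sqle and Lss, all enzymes of the sterol pathway, had -0.73, -0.64 and -0.51. Their spread within groups was wide: Sqle had 7.24, 5.07 and 6.46 under low fat and 5.83, 5.12 and 5.90 under high fat, which overlap. Of the 9 tested genes in the list of triglyceride assembly none passed (median -0.08). Lpin1, a phosphatidate phosphatase, had the largest value among them, -1.16 (adjusted p = 0.383), with overlapping groups. The list does not hold every enzyme of this pathway. Gpat3, an acyltransferase outside the list, passed with a rise of 0.89 on the log2 scale, and in 23 of the 24 alternatives.

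**Figure D3:**
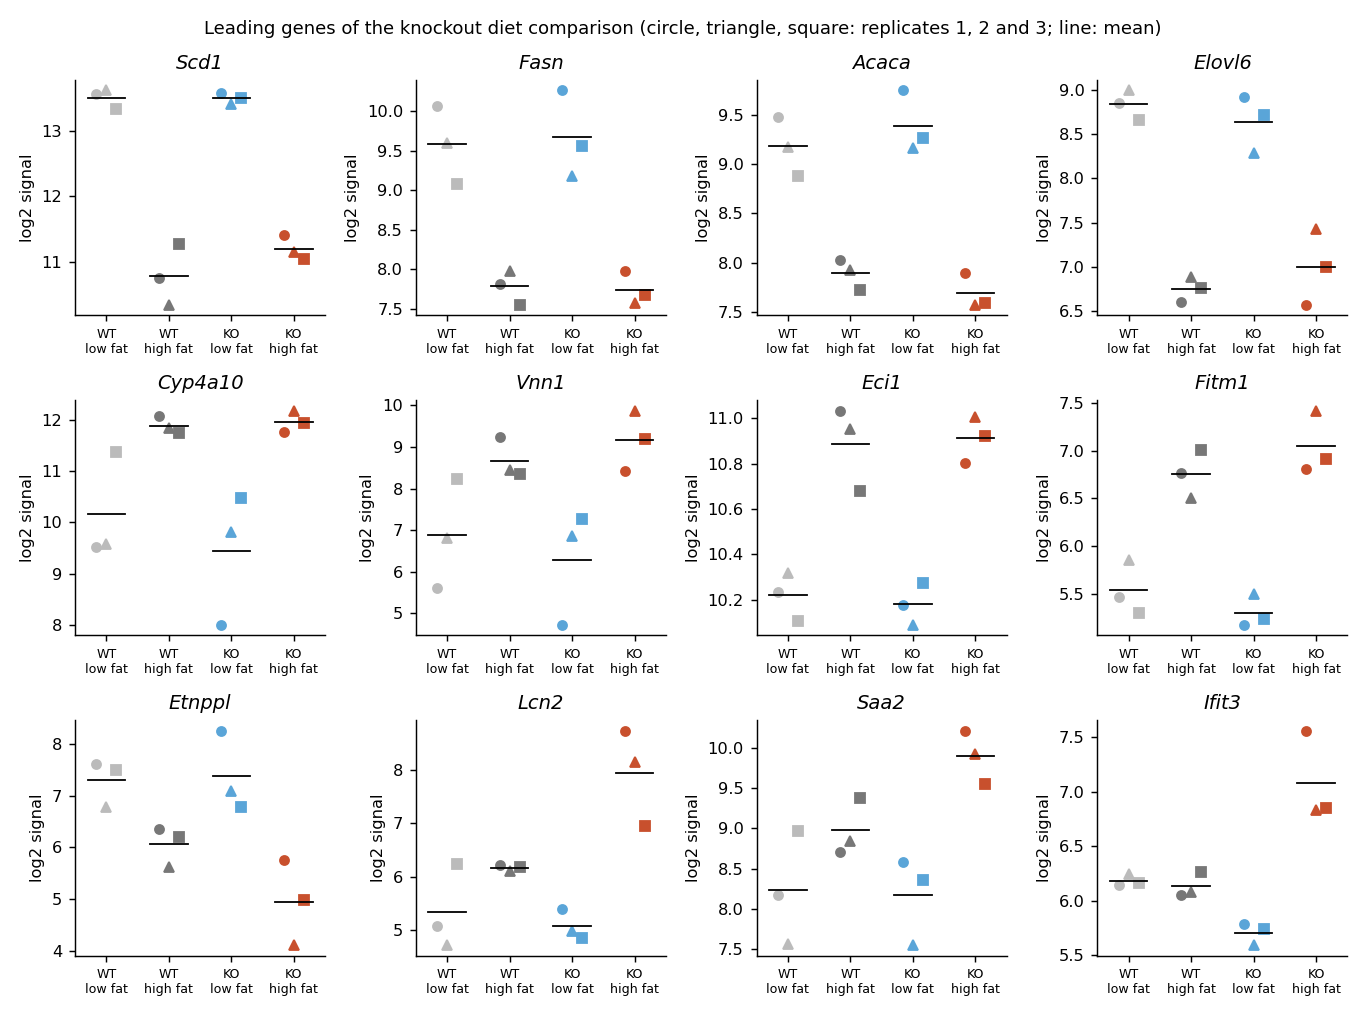
Log2 signal (vertical axes, each with its own range) of 12 genes in each of the 12 arrays, by genotype (WT, wild type; KO, Pml knockout) and diet; symbols are the replicates and lines the means of 3. In knockout liver the diets do not overlap for any of the 12 genes; Cyp4a10 ranges from 8.01 to 10.48 on the low-fat diet and only from 11.75 to 12.18 on the high-fat diet.

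The genes of fatty acid oxidation that rose did so by less than 2-fold. In the mitochondrial list all 17 tested members were higher and 7 rose: Slc25a20, Acadm, Acadl, Hadh, Hadhb, Eci1 and Etfdh (median difference 0.28). Over all genes tested 48.4% were higher and 1.75% rose. Eci1, the isomerase that moves double bonds of unsaturated fatty acids, had 10.18, 10.09 and 10.28 under low fat and 10.80, 11.01 and 10.92 under high fat. The groups were apart by more than their spread (difference 0.73, SE 0.0957, adjusted p = 0.00274). Etfdh, which passes electrons from the oxidation to ubiquinone, rose by 0.53 (adjusted p = 0.0118) but missed the threshold without high-fat replicate 2 (adjusted p = 0.0644). Slc25a20, the carnitine carrier of the inner membrane, had 0.48 (adjusted p = 0.0469), and Hadhb, the thiolase subunit of the trifunctional protein, 0.38 (adjusted p = 0.0189).

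The calls of these last genes were not firm. Slc25a20 missed the threshold in 10 of the 12 refits without an array (adjusted p up to 0.18) and Hadhb without low-fat replicate 2, high-fat replicate 2 or high-fat replicate 3 (adjusted p up to 0.0927). Over the list, 2 to 9 members rose when an array was left out and 1, Eci1, rose without the 2 arrays of lowest macrophage level. The median stayed between 0.25 and 0.34 without any one array. Cpt1a, the entry step of the pathway, had 0.36 (SE 0.0995, adjusted p = 0.0702).

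Among 16 tested genes of peroxisomal oxidation 15 were higher and 5 rose: Ehhadh, Hsd17b4, Acaa1a, Decr2 and Ech1 (median 0.28). Decr2, the peroxisomal dienoyl-CoA reductase, rose from 9.61, 9.38 and 9.58 to 10.16, 10.33 and 10.31 (difference 0.74, SE 0.095, adjusted p = 0.00247). Ech1, a dienoyl-CoA isomerase that like Decr2 acts on unsaturated fatty acids, rose from 10.57, 10.57 and 10.56 to 11.07, 11.33 and 11.15 (difference 0.62, adjusted p = 0.00436). Together with Eci1 they passed under every alternative. Ehhadh, the bifunctional enzyme, had 10.32, 10.43 and 10.66 and then 10.86, 11.31 and 11.04 (difference 0.60, adjusted p = 0.0288), and Acaa1a, a thiolase, 0.47 (adjusted p = 0.0413). Ehhadh missed the threshold without low-fat replicate 1 or 2 or high-fat replicate 2 or 3 (adjusted p up to 0.115), and Acaa1a in 8 of 12 such refits (up to 0.168). The list had 2 to 6 members past the threshold without any one array, and 2, Decr2 and Ech1, without the 2 arrays of lowest macrophage level. Acat1, which ends the mitochondrial breakdown and serves ketone body synthesis, rose by 0.52 (SE 0.0614, adjusted p = 0.0018), from 11.61, 11.57 and 11.49 to 12.05, 12.12 and 12.08.

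Targets of PPAR-alpha held the largest rises among the lipid lists, Vnn1 and Cyp4a10, with a wide spread between arrays. Of 14 tested 12 were higher and 4 rose: Vnn1, Cyp4a10, Ehhadh and Slc25a20 (median 0.54). The promoters of Ehhadh and Slc25a20 are the ones of this group in the table and are shown with the same marks.
Ehhadh, promoter at chr16:21787785-21788084, minus strand: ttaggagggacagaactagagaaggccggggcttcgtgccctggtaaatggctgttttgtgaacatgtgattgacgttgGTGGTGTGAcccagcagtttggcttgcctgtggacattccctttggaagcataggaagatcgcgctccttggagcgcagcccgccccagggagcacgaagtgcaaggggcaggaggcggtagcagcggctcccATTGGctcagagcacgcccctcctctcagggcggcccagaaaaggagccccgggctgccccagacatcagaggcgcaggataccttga
Slc25a20, promoter at chr9:108661886-108662185, plus strand: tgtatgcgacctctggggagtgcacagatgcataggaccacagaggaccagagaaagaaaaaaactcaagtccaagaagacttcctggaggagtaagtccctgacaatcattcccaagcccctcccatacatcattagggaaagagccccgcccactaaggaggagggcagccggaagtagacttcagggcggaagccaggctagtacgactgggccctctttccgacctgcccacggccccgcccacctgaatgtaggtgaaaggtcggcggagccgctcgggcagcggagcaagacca
The Ehhadh window held 1 NF-Y box and 1 sterol element, and the Slc25a20 window none of the motifs. Neither held the direct repeat as spelled here.

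Cyp4a10 had 8.01, 9.82 and 10.48 under low fat and 11.75, 12.18 and 11.94 under high fat. The high-fat livers were close to each other, whereas the low-fat livers covered a range of over 2 on the log2 scale, lowest in replicate 1. The difference was 2.52 (SE 0.551, adjusted p = 0.0305). Vnn1 had 4.72, 6.87 and 7.26 and then 8.41, 9.87 and 9.20, a difference of 2.88 (SE 0.686, adjusted p = 0.0436). Among the knockout arrays, low-fat replicate 1 was the lowest for both genes and the highest for Fasn, Acaca and Acacb.

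Neither call held throughout. Cyp4a10 missed the threshold without low-fat replicate 1 or 2 or any of the high-fat arrays (adjusted p up to 0.119) and in the knockout arrays alone (adjusted p = 0.0779). Vnn1 missed it in 9 of the 12 refits without an array (adjusted p up to 0.171). Over the list, 0 to 5 members rose when an array was left out, and 0 did without the 2 arrays of lowest macrophage level. Cyp4a10 belongs to a cluster of near-identical genes, so its signal may include related transcripts. Ppara itself had 0.30 (adjusted p = 0.12), Fgf21, a fasting hormone, 0.69 (adjusted p = 0.468) and Angptl4, an inhibitor of lipoprotein lipase, -0.16 (adjusted p = 0.769).

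Among genes of fat storage, Fitm1, which promotes the formation of lipid droplets and is known mainly from muscle, stood out. It had 5.18, 5.50 and 5.24 under low fat and 6.81, 7.42 and 6.91 under high fat, a 3.35-fold rise (SE 0.192, adjusted p = 0.00131) that passed under every alternative. It was the one of 11 tested droplet proteins and lipases that passed (list median 0.25). Plin2, the main coat protein of liver droplets, had 0.55 (adjusted p = 0.344), and its low-fat values of 10.11, 11.47 and 10.65 overlapped the high-fat values of 10.92, 11.55 and 11.41. In the list of uptake and binding, Fabp2, the intestinal-type binding protein, rose by 0.62 (adjusted p = 0.0436) and Slc27a2, a fatty acid transporter and acyl-CoA synthetase, by 0.22 (adjusted p = 0.0353). These 2 of 14 missed the threshold in 8 and 6 of the 12 refits without an array (adjusted p up to 0.176 and 0.128). Cd36, the fatty acid translocase, had 1.01 (adjusted p = 0.0937). The uptake list had no common direction. Of its 14 tested members 7 were higher and 7 lower (median -0.004), with values from -2.05 to 1.01.

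**Figure D4:**
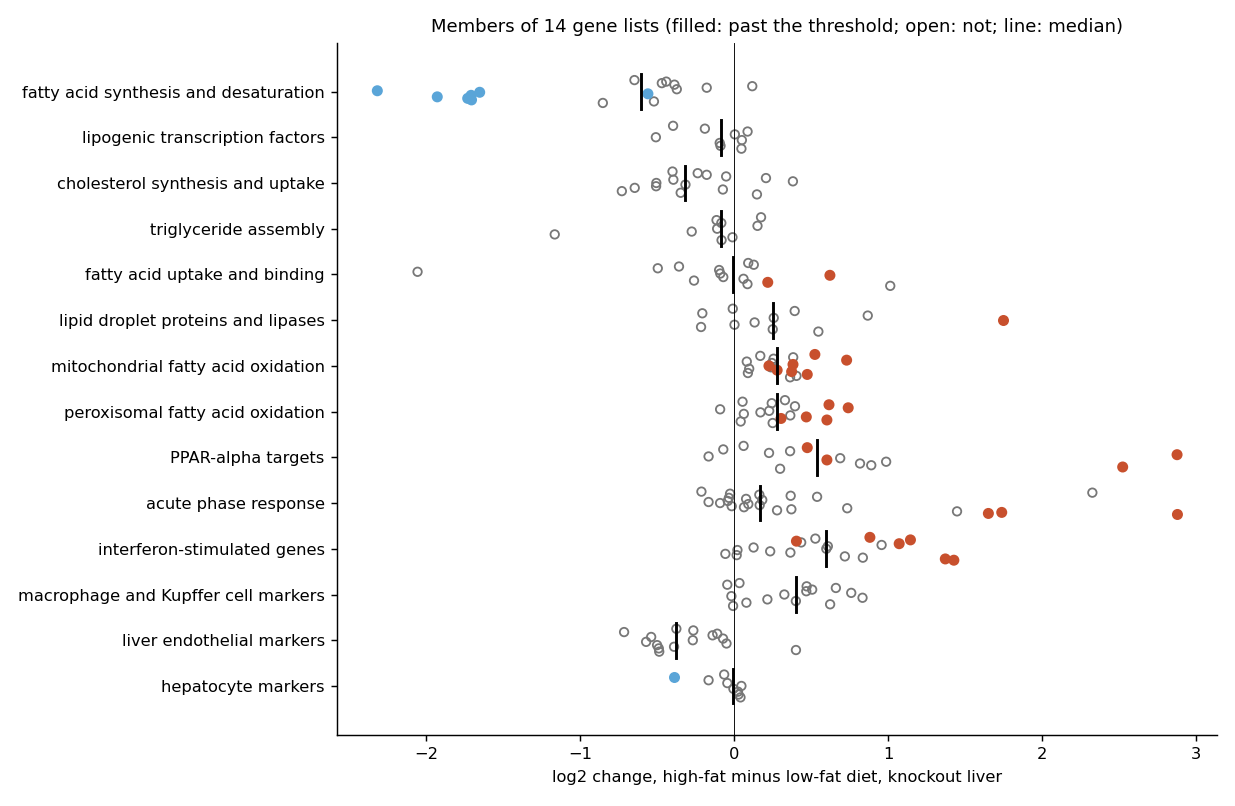
Log2 change between the diets in knockout liver (horizontal axis) of every tested member of 14 gene lists. Filled points passed the threshold (orange rose, blue fell), open points did not, and lines are medians; the medians run from -0.60 for fatty acid synthesis to 0.60 for interferon-stimulated genes.

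Etnppl had the largest fall when the brightest probe set stood for each gene, though the dimmer probe set of Scd1 gave -4.18. The Etnppl enzyme breaks down phosphoethanolamine, a building block of phospholipids. Etnppl had 8.25, 7.09 and 6.77 under low fat against 5.76, 4.11 and 4.98 under high fat. The groups did not overlap and both had a wide spread. The difference was -2.42 (SE 0.427, adjusted p = 0.0128). It missed the threshold without high-fat replicate 2 (adjusted p = 0.0611), in the knockout arrays alone (adjusted p = 0.0764) and without the 2 arrays of lowest macrophage level (adjusted p = 0.0736). In the list of amino acid and phosphoethanolamine breakdown 3 of 15 fell, Etnppl, Etnk1 and Hal, and 3 rose, Agxt2, Oat and Prodh (list median 0.03). Etnk1, which makes phosphoethanolamine from ethanolamine, fell by 0.35 on the log2 scale (adjusted p = 0.0414). Hal, which deaminates histidine, fell by 0.50 (adjusted p = 0.0436). Etnk1 missed the threshold in 9 and Hal in 10 of the 12 refits without an array (adjusted p up to 0.163 and 0.141), and both missed it in the knockout arrays alone (adjusted p = 0.138 and 0.0916). Over the list, 0 to 3 members fell and 1 to 3 rose when an array was left out. Agxt2, an aminotransferase related to Etnppl, rose from 9.57, 9.69 and 9.59 to 10.29, 10.06 and 10.06 (difference 0.52, adjusted p = 0.00351) and passed under every alternative. Oat, ornithine aminotransferase, and Prodh, proline dehydrogenase, rose by 0.62 and 0.56 (adjusted p = 0.0366 and 0.0203); they missed the threshold in 5 and 3 of the 12 refits without an array (adjusted p up to 0.117 and 0.0688).

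Acute phase proteins are made by the liver in inflammation. Of 23 tested 3 rose, Lcn2, Saa2 and Saa1, and none fell, with a list median of 0.17. Lcn2 had 5.39, 4.98 and 4.84 under low fat and 8.74, 8.16 and 6.94 under high fat. All high-fat livers were higher, with replicate 3 the lowest of them. The difference was 2.88 (SE 0.417, adjusted p = 0.00435), and Lcn2 passed under every alternative. Without the 2 arrays of lowest macrophage level it was 3.33 (adjusted p = 0.0104).

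The serum amyloid genes Saa1 and Saa2, whose proteins join high-density lipoprotein in inflammation, moved together. Saa2 had 8.59, 7.54 and 8.36 and then 10.22, 9.93 and 9.56 (difference 1.74, SE 0.339, adjusted p = 0.0195). Saa1 had 9.03, 8.16 and 9.08 and then 10.62, 10.40 and 10.21 (difference 1.65, SE 0.323, adjusted p = 0.0195). Their sequences are near-identical, so the probe sets may not tell them apart. Both were lowest in low-fat replicate 2 and missed the threshold without that array or without high-fat replicate 1 or 2 (adjusted p up to 0.0804). Without the 2 arrays of lowest macrophage level they had adjusted p = 0.0872 (Saa2) and 0.11 (Saa1). Neutrophils also make Lcn2, and their markers averaged 4.60, 4.80 and 4.68 under low fat and 4.80, 4.80 and 4.84 under high fat, close to the dimmest genes tested, and none of 5 passed; their part in the result was not tested. A further 2 members had large values that did not pass, Mt1, a metallothionein, with 2.33 (adjusted p = 0.0542) and Saa3, a serum amyloid made outside hepatocytes too, with 1.45 (adjusted p = 0.0573).

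Interferon-stimulated genes act against viruses and present antigens. Of 19 tested 18 were higher and 6 rose, Ifit1, Ifit3, Ifi47, Igtp, Psmb9 and Iigp1, with a median difference of 0.60. Over all genes tested 48.4% were higher and 1.75% rose. Ifit3, which restrains viral RNA with its partner Ifit1, had 5.79, 5.59 and 5.74 under low fat and 7.55, 6.83 and 6.85 under high fat. The low-fat livers were tight and all high-fat livers stood more than 1 above them (difference 1.37, SE 0.167, adjusted p = 0.00225). Ifit1 had 4.75, 4.13 and 5.07 and then 6.17, 5.995 and 6.07 (difference 1.43, adjusted p = 0.0429), but missed the threshold in 7 of 12 refits without an array (adjusted p up to 0.124).

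Igtp and Ifi47 belong to the GTPases induced by interferon-gamma. Igtp had 7.13, 7.26 and 7.86 and then 8.52, 8.79 and 8.17 (difference 1.07, adjusted p = 0.0122). Ifi47 had 7.13, 7.06 and 7.73 and then 8.32, 8.78 and 8.26 (difference 1.15, adjusted p = 0.0117). Both missed the threshold without high-fat replicate 2 (adjusted p = 0.0652 and 0.0568) and in the knockout arrays alone (adjusted p = 0.0765 and 0.0684). Between 1 and 9 members rose without any one array, and 3 without the 2 arrays of lowest macrophage level. Beside this, the chemokine Cxcl9, which draws T cells and is induced by interferon-gamma, had 6.45, 5.31 and 6.77 and then 9.19, 7.98 and 6.85 (difference 1.84, adjusted p = 0.065), and 0 of 10 cytokines and chemokines passed. Markers of T, B and NK cells averaged 4.92, 4.66 and 4.91 under low fat and 5.11, 5.01 and 4.96 under high fat, with 4 of 6 higher and none past the threshold. Ptprc, the pan-leukocyte surface phosphatase, had 5.23, 3.55 and 5.10 and then 6.12, 5.78 and 5.03 (difference 1.02, adjusted p = 0.215). The part of these markers in the interferon result was not tested.

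Several of the largest changes fell outside these groups. Of the 311 genes that passed, 50 were in at least 1 of the 41 lists and 261 in none. No list holds more than 30 genes, so the lists cover a small part of the 10258 genes tested. The count of 261 therefore does not show that changes were more frequent outside the lists. Rad51b, a homologous recombination factor, rose 4.64-fold, from 5.99, 5.83 and 6.01 to 7.96, 8.50 and 8.01 (SE 0.359, adjusted p = 0.00901). Meg3, a maternally expressed long non-coding RNA, rose 3.69-fold, from 5.98, 6.37 and 6.35 to 8.50, 7.90 and 7.95 (SE 0.291, adjusted p = 0.00621). Its dimmer probe sets disagreed, running from -0.02 to 1.56, and the mean of all its probe sets gave 0.62. For Rad51b the mean of its probe sets gave 1.06, and for Esrrg, described next, 0.73 (adjusted p = 0.0621). Neat1, the long non-coding RNA that scaffolds paraspeckles, had 8.32, 8.48 and 9.19 and then 10.07, 10.49 and 10.16 (difference 1.58, adjusted p = 0.0244). It missed the threshold without low-fat replicate 1 or 2 or high-fat replicate 2 or 3 (adjusted p up to 0.105).

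Csrp3, a LIM protein of striated muscle, rose from 6.74, 6.42 and 6.33 to 7.77, 8.16 and 8.23 (difference 1.56, SE 0.165, adjusted p = 0.00104), and Pdzrn3, a ubiquitin ligase with PDZ domains, from 4.27, 4.10 and 4.84 to 6.18, 6.29 and 5.99 (adjusted p = 0.00402). Csrp3 passed under every alternative and Pdzrn3 under the 23 in which it was tested. None of 3 tested skeletal muscle markers passed, and their mean signal was 4.11 to 4.47 on the low-fat and 4.11 to 4.29 on the high-fat diet. Osbpl3, an oxysterol-binding protein, and Esrrg, an orphan nuclear receptor, rose by 1.55 and 1.48 (adjusted p = 0.0235 and 0.0427) and missed the threshold in 3 and 8 of 12 refits without an array (adjusted p up to 0.0743 and 0.11). The remaining large rises, Gm2788 (1.64) and 1810046K07Rik (1.65), missed it in 5 and 6 (adjusted p up to 0.13 and 0.132).

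Among the falls outside lipid synthesis, Vegfb, a growth factor of the VEGF family, had 6.06, 5.95 and 6.18 under low fat and 4.42, 4.80 and 4.64 under high fat (difference -1.44, SE 0.152, adjusted p = 0.00104). Reck, a membrane-anchored inhibitor of matrix metalloproteinases, had 5.85, 5.15 and 5.64 and then 4.17, 4.29 and 4.29 (difference -1.30, adjusted p = 0.00351). Rnd2 fell by 1.15 on the log2 scale (adjusted p = 0.00351). Rnd2 passed under every alternative, and Vegfb and Reck under the 23 in which they were tested. Atg16l2, a relative of the autophagy factor Atg16l1, fell from 6.19, 5.39 and 5.79 to 4.10, 4.27 and 4.58 (adjusted p = 0.0122). Mpp4, a membrane scaffold protein, Tubb2a, a beta-tubulin, and Gstm6, a glutathione transferase, fell by 1.21, 1.21 and 1.09. All of Atg16l2, Mpp4, Tubb2a and Gstm6 missed the threshold without high-fat replicate 2 (adjusted p of 0.0591 to 0.0687), and Tubb2a also without high-fat replicate 3. As the mean of its probe sets, Atg16l2 had -0.76 and Tubb2a -0.69.

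Cdh1, E-cadherin of epithelial junctions, was tight on the low-fat diet at 7.70, 7.70 and 7.73 and had 6.18, 6.36 and 7.11 on the high-fat diet (difference -1.16, adjusted p = 0.049), and missed the threshold in 7 of 12 refits without an array (adjusted p up to 0.174). Hnf4a, the nuclear receptor that maintains hepatocyte identity, fell from 11.30, 11.44 and 11.22 to 10.96, 10.93 and 10.92 (difference -0.39, SE 0.0777, adjusted p = 0.023). Its 3 further probe sets were lower too, at -0.41, -0.26 and -0.15. It missed the threshold without low-fat replicate 1 or 2 or high-fat replicate 2 or 3 (adjusted p up to 0.0878), and was the one of 9 hepatocyte markers that passed.

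Smaller lists had few members past the threshold, beside 1.75% of all genes tested that rose and 1.28% that fell. In bile acid metabolism 2 of 17 fell and none rose. Fgfr4, the receptor of the gut hormone that restrains bile acid synthesis, fell by 0.54 on the log2 scale (adjusted p = 0.0381). Abcb11, the bile salt export pump, fell by 0.37 (adjusted p = 0.0498). Of the 17 members 8 were higher and 9 lower (median -0.01), with values from -0.54 to 1.09. Of 14 targets of the drug receptors CAR and PXR, Nr1i3, CAR itself, and Cyp2c37 rose by 0.72 and 0.91 (adjusted p = 0.0192 and 0.0272). The esterase Ces2a fell by 0.39 (adjusted p = 0.0472). Of these 14 targets 10 were higher and 4 lower (median 0.11), with values from -0.40 to 1.87. Gys2, liver glycogen synthase, fell by 0.37 (adjusted p = 0.0436), the one of 12 in glycolysis and glycogen. Of 11 components or partners of PML nuclear bodies, the kinase Hipk2 fell by 0.45 (adjusted p = 0.0244) and the tumour suppressor Rb1 by 0.57 (adjusted p = 0.0498). Of 19 genes of the unfolded protein and integrated stress responses, Ppp1r15a, which ends the stress block of translation, fell by 0.50 (adjusted p = 0.0325). All 9 of these missed the threshold in 3 to 9 of the 12 refits without an array (adjusted p up to 0.167).

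No member passed among 15 p53 targets (median 0.03), 14 NRF2 antioxidant genes (0.08), 15 circadian clock genes (-0.16), 14 genes of insulin and FOXO signalling (-0.18), 11 of the cell cycle (-0.09), 8 of the urea cycle (-0.09) or 6 of glucose production (0.01). Among them G6pc, glucose-6-phosphatase, had -1.06 with overlapping groups (adjusted p = 0.262), Igfbp1, an insulin-repressed binding protein, -0.96 (adjusted p = 0.269), and Ccnd1, cyclin D1, 0.85 (adjusted p = 0.145). Of 13 genes of stellate cells and fibrosis none passed (median 0.26), and Col3a1, a fibrillar collagen, had 0.43 (adjusted p = 0.366).

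In wild-type livers the same comparison of diets called 18 genes (0.175%, 8 higher and 10 lower; 905 had an unadjusted p under 0.05). All 18 also passed in knockout liver, where they are 5.79% of the 311. Leaving out wild-type low-fat replicate 1 gave 6 genes. Leaving out wild-type high-fat replicate 1, 2 or 3 gave 11, 5 or 9, and leaving out knockout low-fat replicate 2 or 3 gave 39 or 28. The 18 include Scd1, Fasn, Acaca, Acacb, Elovl6, Eci1, Ech1, Fitm1, Meg3, Vegfb, Reck and Rnd2. Of the 311 genes 286 (92.0%) had the same sign in wild-type liver, against 61.9% of all genes tested. The 180 that rose in knockout liver had a median difference of 0.62 there and of 0.27 in wild-type liver, and the 131 that fell had -0.53 and -0.21. Of the other 25, Hnf4a had -0.39 in knockout and 0.02 in wild-type liver, and Rb1 -0.57 and 0.02. The medians compare a value on which the genes were chosen with one on which they were not. For the 18 genes chosen on the wild-type values, the median size was 1.23 in wild-type and 1.30 in knockout liver. Across the 10258 genes, which are not independent replicates, the differences of the 2 genotypes had a Pearson correlation of 0.461 and a Spearman correlation of 0.377.

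Whether the diet effect itself differed between the genotypes was tested as the difference of both differences, over all genes. No gene passed (0%; 585 had an unadjusted p under 0.05, and the smallest adjusted p was 0.366). Without knockout low-fat replicate 3, 1 gene did. A larger count of calls in knockout than in wild-type liver is therefore not a tested difference for any gene. The smallest p-values were those of Ifit3, Srpk1, Mterf2, Zfp771 and Slc35e3. Ifit3 had a diet effect of 1.37 in knockout and -0.05 in wild-type liver, a difference of 1.42 (SE 0.236, adjusted p = 0.366). Srpk1, a kinase of splicing factors, had -0.82 and 0.11 (adjusted p of the difference = 0.366). Mterf2, a mitochondrial transcription termination factor, had 1.47 and 0.41 (adjusted p = 0.576).

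For the 4 leading genes the difference between genotypes did not pass the correction over all genes. Lcn2 had 2.88 in knockout and 0.83 in wild-type liver (difference 2.05, SE 0.59, adjusted p = 0.802). Etnppl had -2.42 and -1.24 (difference -1.17, SE 0.604). Cyp4a10 had 2.52 and 1.73 (difference 0.79, SE 0.779). Scd1 had -2.31 and -2.73 (difference 0.42, SE 0.251). By lists, the medians in knockout and wild-type liver were -0.60 and -0.80 for fatty acid synthesis, 0.28 and 0.27 for mitochondrial oxidation, 0.28 and 0.18 for peroxisomal oxidation, 0.54 and 0.14 for PPAR-alpha targets and 0.60 and 0.01 for interferon-stimulated genes. No member of any list passed the test of the difference.

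**Figure D5:**
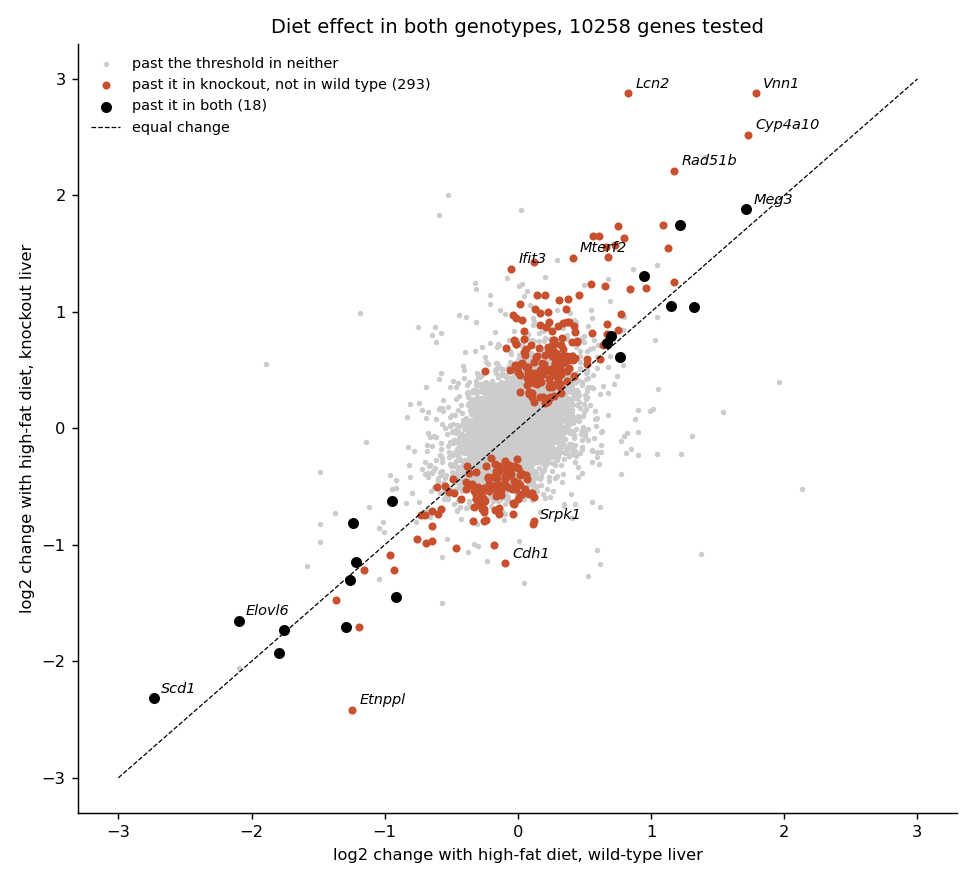
Log2 change between the diets in knockout liver (vertical axis) against that in wild-type liver (horizontal axis) for the 10258 genes tested. Black points passed in both genotypes (18), orange points passed in knockout and not in wild-type liver (293), and the dashed line marks equal change; Lcn2 lies at 2.88 and 0.83, Scd1 at -2.31 and -2.73.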

How the data were processed

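Liver RNA of 12 extracts was measured on Affymetrix mouse arrays, 3 for each of 4 groups; per the labels' protocols, Trizol was used to extract total RNA, which was then biotin-labelled. The deposited values are log2 signals that, per the submitters' processing notes, the authors computed by RMA (version not given in the sources used). RMA gives arrays a shared distribution, and differences of probe sets close to background or to saturation come out too small. The number of arrays limits the precision.

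From the deposited log2 values, 104 control probe sets, 551 with several genes and 15588 with none were left out. The brightest probe set stood for a gene, and the 40% of genes with the lowest mean (6839) were left out. Group means were fitted over all 12 arrays in R 4.3.3 with limma 3.58.1 with a variance trend (8 residual degrees of freedom), with the Benjamini-Hochberg correction over 10258 genes in each comparison. With 3 arrays against 3, an exact permutation test cannot go below 0.1, so none was run. SE are limma's. Promoters come from RefSeq (GRCm38.p6).

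The comparison and the gene lists were chosen with earlier results of these data known. The rule named Pml, Scd1, Lcn2, Cyp4a10, Etnppl, the 15 largest rises and falls, up to 4 members past the threshold of each list (up to 3 of the largest where none passed) and the 5 smallest p of the difference between genotypes. Not all of these are described. Gpat3 was outside the rule and was named after its values were seen. Others, such as Elovl5, Acly, Thrsp, Cpt1a, Acadm, Acadl, Hadh, Hsd17b4, Ppara, Fgf21, Angptl4, Etnk1, Hal, Mt1, Saa3, Psmb9, Iigp1 and the genes of the closing section, were chosen after their values were seen. Alternatives were 2 other normalizations, 2 other filters, averaging the probe sets of each gene, 2 other variance models, array weights, a replicate block, a fit of the knockout arrays alone, a threshold of 0.10, each array left out, and the 2 arrays of lowest macrophage level left out.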

Additional observations from a re-analysis of the deposited data

How the results depend on the processing

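The count of 311 genes in knockout liver was 68 with the knockout arrays alone, 69 without the 2 arrays of lowest macrophage level, 655 at an adjusted p of 0.10 and 71 to 461 without any one array. It lay between 212 and 420 under the other normalizations, filters, variance models and array weights. The wild-type count of 18 was 34 after quantile normalization, 109 with array weights, 65 at an adjusted p of 0.10 and 5 to 39 without any one array; its alternatives were added to those planned. The difference between genotypes had 0 to 1 genes without any one array and 0 under each other alternative. The labels do not say whether the replicate numbers pair the extracts, and the values do not settle it. The deviations of same-numbered knockout arrays from their group means correlated at 0.38, 0.31 and -0.04. Those of differently numbered knockout arrays on the 2 diets correlated at -0.45 to 0.25. With a replicate block 310 genes passed in knockout liver, 259 of them among the 311, and 22 in wild-type liver. Of 104 named genes, Gpat3 aside, 79 passed. Of these 31 passed under each of the 24 alternatives in which they were tested (23 for 6 genes left out by the 60% filter). Of 2476 values of named genes under an alternative, 380 lost the call, 41 gained it and 1 changed sign: Angptl4, which did not pass, had -0.32 to 0.026 without any one array, the highest without knockout high-fat replicate 2. The cause of these shifts was not tested. Of the list medians under the alternatives, 951 moved by less than the spread between arrays and 29 by more. Many of the 951 could not move. The other variance models, the replicate block, the knockout arrays alone and the looser threshold leave the differences as they are. So does leaving out a wild-type array. Probe sets near background, as those of Pml and Ptprc, limit what can be read from low levels.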

Other observations

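Some of the 34 genes that passed under every alternative in which they were tested belong to no list described above and were chosen after their values were seen. Aldh1a1, which oxidises retinal, had 12.37, 12.39 and 12.66 under low fat and 13.06, 13.02 and 13.02 under high fat (difference 0.56, adjusted p = 0.00351; 0.18 in wild-type liver). Aldh9a1, which acts on aminobutyraldehyde, rose by 0.43, Ddo, which oxidises D-aspartate, by 0.65 and Adhfe1, a hydroxyacid-oxoacid transhydrogenase, by 0.74. Their groups did not overlap, and in wild-type liver the 3 genes had 0.10, 0.04 and 0.27.

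Slc47a1, a transporter that exports organic cations, rose by 0.88, Gda, guanine deaminase, by 0.92 and Nt5e, the surface enzyme CD73 that forms adenosine, by 1.31. Nt5e also passed in wild-type liver, with 0.95 (adjusted p = 0.0275). Cox6b2, a cytochrome oxidase subunit known from testis, had 8.02, 8.28 and 8.25 under low fat and 9.07, 9.30 and 9.30 under high fat (difference 1.04), and 1.32 in wild-type liver. Man2a2, a mannosidase of glycan processing, fell by 1.03 on the log2 scale, with -0.46 in wild-type liver.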
